A study of Homo sapiens with 6 samples.

Results

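The transcripts of 8 genes that set the polyamine content of a cell were examined: OAZ1, OAZ2, ODC1, AMD1, AZIN1, SAT1, SRM and SMS. They were chosen by gene symbol, with 1 RefSeq transcript for each, out of 15739 transcripts in the data. The data are counts of reverse transcriptase (RT) stops on poly(A)-selected RNA of U2OS, a human osteosarcoma cell line. Of the 6 libraries, 2 were made from RNA without dimethyl sulfate (DMS), and their labels give RT in 150 mM Na+ or 150 mM K+. Another pair was made from RNA that was refolded in 150 mM K+ or 150 mM Li+ and then treated with DMS. The last pair came from living cells treated with 8% DMS for 5 min, either unstressed or after 2 h of starvation in a salt solution (HBSS). RT of these 4 libraries with DMS was in 150 mM K+. There was 1 library per condition, so no difference between conditions has a replicate check, no p-value was calculated, and every interval given below covers counting error only.

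Polyamines are small, positively charged molecules that bind nucleic acids and are needed for growth. Ornithine decarboxylase (ODC1) makes putrescine, the decarboxylase AMD1 makes the aminopropyl donor, and spermidine synthase (SRM) and spermine synthase (SMS) build the longer polyamines from them. Antizymes (OAZ1 and OAZ2) bind ornithine decarboxylase and send it to the proteasome, the antizyme inhibitor AZIN1 binds antizyme in its place, and the acetyltransferase SAT1 marks polyamines for breakdown or export. The antizyme coding sequence is split over a pair of reading frames, and polyamines raise the share of ribosomes that shift by one base at the UGA codon ending the first frame, helped by an RNA pseudoknot just after it. DMS methylates unpaired A and C, which then stop RT, and it also methylates G at a position that is buried when G runs stack into a G-quadruplex.

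For the pair of libraries made without DMS, the label of each gives one RT cation and the name of its deposited file the other one. They appear below as the library labelled K+ and the library labelled Na+, and each comparison within the pair turns over if the file names are right. Listed stops ranged from 12999691 in unstressed cells to 35371061 in the library labelled K+. Of 8 markers of mesenchyme or bone, 7 were in the data and 6 had at least 100 stops in every library, with a summed level of 2973 to 4602 stops per 1000000 stops of the library (SPM). The 2 epithelial markers in the data (EPCAM and CDH1) summed to at most 10.2 SPM, and the 1 blood marker (PTPRC) to at most 0.106. Stops lay nearer to the 3′ end in the cell libraries. The median transcript had 89.3% of its listed stops in the 3′ part of its length, past the midpoint, in unstressed cells and 88.7% in starved cells, against 59.5 to 61.1% in the other 4 libraries.

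OAZ1 was the most abundant of the 8 transcripts per length, and starved cells gave it a smaller share of stops than unstressed cells did. On the scale of SPM per kb, its level was 532 in the library labelled K+, 535 in that labelled Na+, 547 after refolding in K+, 550.3 after refolding in Li+, 908 in unstressed cells and 450.2 in starved cells. The unstressed library was thus the highest and the starved library the lowest of the 6. ODC1 came next in every library, with levels of 373, 362, 379, 379.8, 408 and 334 in the same order. The order of the 8 levels was the same in the first 5 libraries: OAZ1, ODC1, SRM, SMS, OAZ2, AZIN1, AMD1 and SAT1. In starved cells the order was OAZ1, ODC1, SMS, AMD1, AZIN1, SRM, OAZ2 and SAT1. Among neighbours in this order, SRM and SMS were not told apart by counting error in the library labelled K+ (ratio 1.01, 95% interval 0.983 to 1.04), nor were AZIN1 and SRM in starved cells (ratio 1.02, interval 0.972 to 1.07).

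**Figure D1:**
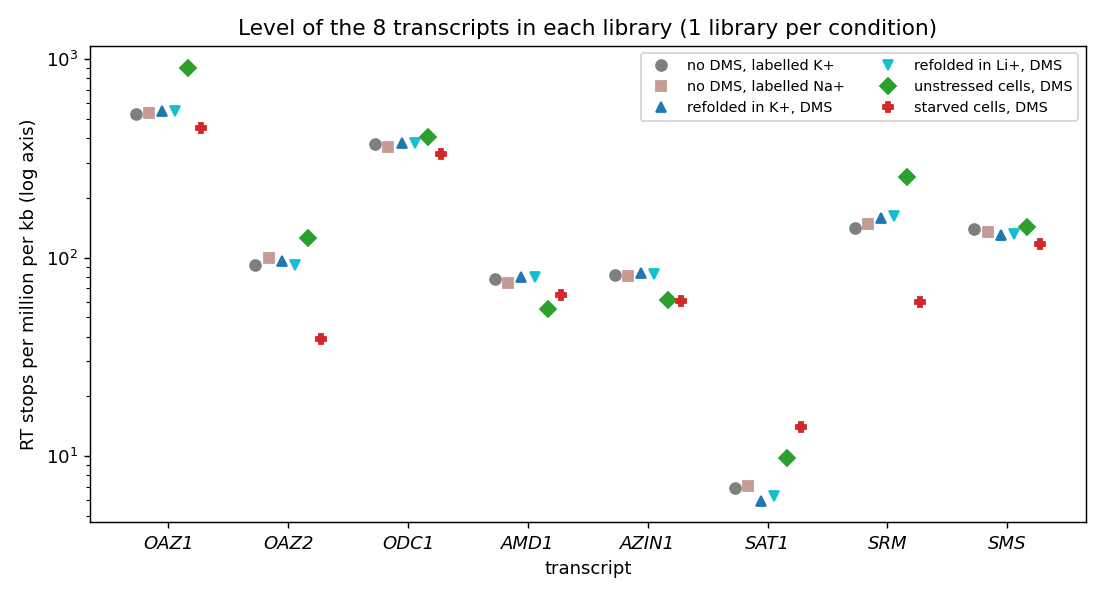
RT stops per 1000000 stops per kb (SPM per kb, log axis) of the 8 transcripts, with 1 point for each of the 6 libraries and no replicates. OAZ1, OAZ2, ODC1, SRM and SMS have their lowest point in starved cells and their highest in unstressed cells, with the widest gaps in SRM and OAZ2, and SAT1 lies below the others throughout.

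SAT1 was nearly empty. Only 76 of its 1064 nucleotides (7.14%) had a listed stop in any library, against 78.5 to 96.1% for the other members, and its listed stops numbered 42 to 146 per library. In 3 of the 4 libraries with DMS no stop at G was listed for SAT1, so its values below rest on few nucleotides.

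Starvation was compared with the unstressed state through the share of all stops that a transcript took. A share shows a transcript relative to the other transcripts, so RNA loss from one and gain by others cannot be told apart. Of the 8 members, 3 were at least 2-fold lower in starved cells and none was at least 2-fold higher. Among all 9017 transcripts with at least 100 stops in both libraries, 30.1% were at least 2-fold lower and 11.1% at least 2-fold higher, so the members' count is near the background. The median log2 ratio was -0.29 over the members and -0.27 over all transcripts. Relative to that median, OAZ1 was at -0.74, OAZ2 at -1.43 and SRM at -1.83, so OAZ1 was no longer past 2-fold, and 23.6% of all transcripts were lower and 18.4% higher.

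The 3 lower members were SRM, OAZ2 and OAZ1. SRM took 325 SPM in unstressed and 75.7 in starved cells, a ratio of 0.233 (interval 0.222 to 0.245), against 179 and 187 in the libraries without DMS. OAZ2 took 242 and 74.9 SPM, a ratio of 0.309 (interval 0.293 to 0.325). With listed counts only, the log2 ratio was -2.59 in place of -2.10 for SRM and -2.33 in place of -1.70 for OAZ2. The intervals do not cover this choice. OAZ1 took 1040.0 and 516, a ratio of 0.496 (interval 0.486 to 0.507), which is just past the 2-fold threshold. With noncoding transcripts left out, a choice added after seeing the data, the log2 ratio of OAZ1 was -0.99 in place of -1.01, and it was no longer past the threshold.

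The decarboxylases and the antizyme inhibitor differed less. ODC1 had a ratio of 0.817 (interval 0.800 to 0.834), with 842 SPM in unstressed and 688 in starved cells. AZIN1 was at 265 and 262 SPM, a ratio of 0.991 whose interval (0.957 to 1.03) holds 1. AMD1 had a ratio of 1.17 (interval 1.12 to 1.21), but over the last 500 nt of the transcripts alone, a choice added after seeing the data, its log2 ratio was -0.06 in place of 0.22, and that of AZIN1 was 0.28 in place of -0.01. SMS had a ratio of 0.823 (interval 0.793 to 0.854). SAT1 had a ratio of 1.43 (interval 1.20 to 1.70), from 191 and 454 estimated stops.

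These ratios moved together with base composition. Over the 9017 transcripts, the log2 ratio correlated with the G and C content of the transcript (Pearson r = -0.78, Spearman rho = -0.79, across transcripts of 1 pair of libraries, which are not independent replicates). The median log2 ratio went from 0.80 at a G and C content of 35 to 40% to -1.66 at 60 to 65%. Transcripts within 2 percentage points of OAZ1 (54.0% G and C) had a median log2 ratio of -0.99, next to -1.01 for OAZ1 itself. For SRM (64.2%) the values were -1.72 and -2.10. OAZ2 (52.7%) was at -1.70 and its neighbours in composition at -0.87, so that 10.2% of those neighbours were lower. AZIN1 (38.2%) was at -0.01 where its neighbours were at 0.78, and 8.61% of those were lower. AMD1 (37.9%) was at 0.22 where its neighbours were at 0.79, and 15.4% of those were lower. ODC1 and SMS differed from their neighbours by 0.05 and -0.21 on the log2 scale. Relative to transcripts of like composition, 0 of the 8 members was at least 2-fold apart in either direction, where 5.58% of all transcripts were lower and 8.01% higher. This scaling was added after seeing the data. The part of base composition in the members' ratios was not tested further.

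**Figure D2:**
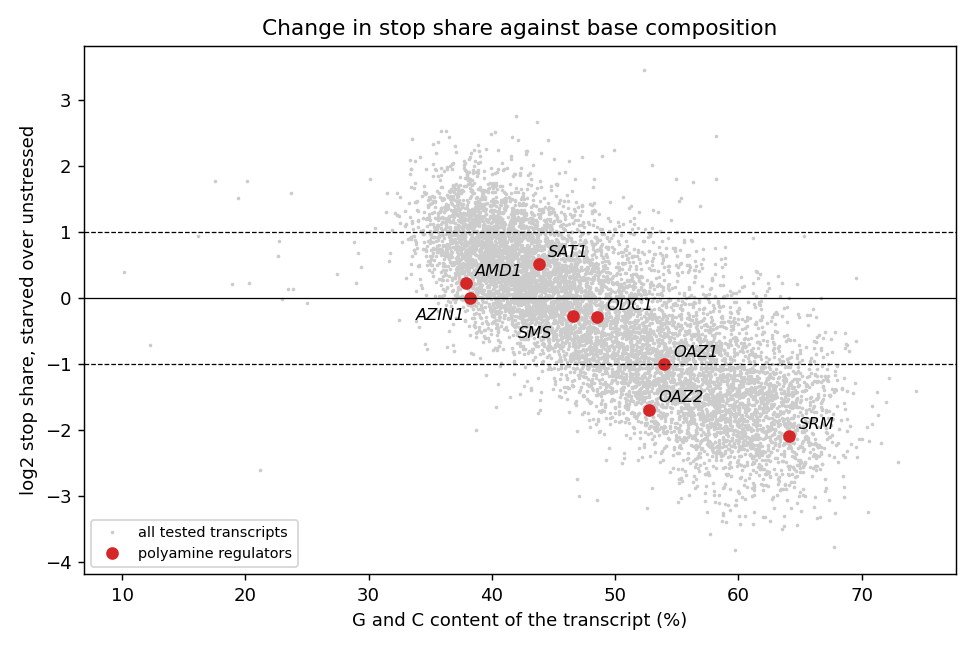
Log2 ratio of stop share, starved over unstressed, against the G and C content of the transcript for the 9017 tested transcripts (grey) and the 8 members (red). Dashed lines mark a 2-fold difference. The members lie along the slope of the grey points, with OAZ2, AMD1 and AZIN1 on its lower side.

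The antizyme frameshift site was read from the transcript sequence. In OAZ1 (chr19, plus strand, GRCh37), a start codon at position 79 of the 1146-nt transcript opens a frame of 68 codons that ends at a UGA at positions 283 to 285, in exon 2. Skipping 1 base there opens the second frame, which ends with the annotated coding sequence at position 766. In OAZ2 (chr15, minus strand), the frame opened at position 216 ends after 32 codons at a UGA whose first base is position 312, also in exon 2. The 30 nt around each site are shown because the values below refer to them, in DNA letters 5′ to 3′, with the last codon of the first frame and the UGA in capitals. They lie at chr19:2271430-2271459 and chr15:64983697-64983726.
OAZ1 frameshift site: cggtggtgcTCCTGAtgcccctcacccacc
OAZ2 frameshift site: ctgtggtgcTCCTGAtgcccctcacccact

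Stops in a window from 30 nt before to 60 nt after the UGA were compared across libraries. The RT-stop enrichment score (E) is the stop count of a nucleotide over the mean count per nucleotide of its transcript, and a strong stop has an E of at least 10. The windows of OAZ1 and OAZ2 held 0 strong stops in each of the 6 libraries. The background was taken over all matched transcripts with a mean of at least 0.25 stops per nucleotide. Strong stops of any base there made up 0.275% of nucleotides in the library labelled K+ and 0.304% in that labelled Na+. They made up 0.588% and 0.552% after refolding in K+ and Li+, 1.39% in unstressed cells and 1.05% in starved cells. With a mean of at least 1, which OAZ1 and OAZ2 reached in each library, the shares in unstressed and starved cells were 0.876% and 0.499%.

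Below that threshold, the OAZ1 window had 3 zones. In the first 20 nt after the UGA, which are rich in C, stops were few: the mean E was 0.618 (labelled K+) and 0.565 (labelled Na+) without DMS, 0.440 and 0.519 after refolding in K+ and Li+, 0.606 in unstressed and 0.481 in starved cells. The A and C nucleotides there, 15 in number, reached 0.451 to 0.554 of the mean of their own base in the 4 libraries with DMS and 0.570 and 0.558 in the 2 without. Values were thus low in the libraries without DMS too. They were not unusual for OAZ1, since between 69.2% (unstressed cells) and 82.7% (refolded in K+) of its windows of equal length had a higher mean.

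The raised zone lay farther on. At 41 to 60 nt after the UGA, the mean E was 2.35 (labelled K+) and 2.48 (labelled Na+) without DMS, 2.52 and 2.46 after refolding in K+ and Li+, 1.91 in unstressed and 1.99 in starved cells. The highest nucleotide with DMS was the A at position 329, 46 nt past the first base of the UGA, with 141 and 180 stops after refolding in K+ and Li+, 107 and 72 in unstressed and starved cells, against 85 in the library labelled K+ and 92 in that labelled Na+. Its E was 8.51 after refolding in K+ and 5.25 in starved cells, the highest and the lowest of the libraries with DMS. At 21 to 40 nt, 10 of the 20 nucleotides are G. At these the 2 libraries without DMS averaged 2.10 and 2.09 times the mean of G. The values were 1.76 and 1.42 after refolding in K+ and Li+, 1.29 in unstressed and 1.30 in starved cells.

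Within the OAZ1 window, starved and unstressed cells differed most in the stretch before the frameshift site. Stretches of OAZ1 outside the window were not compared in this way, so the difference was not shown to be particular to this place. The 13 A and C nucleotides in the 30 nt before the UGA held 429 stops in unstressed and 123 in starved cells. Relative to all A and C stops of the transcript, this is a ratio of 0.392 (interval 0.318 to 0.480). The first 4 of them, chosen after their values were seen, are given here. The A nucleotides at positions 253 and 254 had 85 and 81 stops in unstressed cells, 20 and 17 in starved cells, 55 and 62 after refolding in K+, and 95 and 90 after refolding in Li+. The C nucleotides at positions 255 and 256 had 49 and 39 stops in unstressed and 10 and 10 in starved cells. By E, the 2 A nucleotides were at 1.46 and 1.24 in starved cells and 5.12 and 4.88 in unstressed cells, against 1.04 and 0.880 in the library labelled K+ and 1.29 and 0.624 in that labelled Na+. The 2 C nucleotides were at 0.729 each in starved cells and at 2.95 and 2.35 in unstressed cells, against 0 and 0.200 in the library labelled K+ and 0.249 and 0.291 in that labelled Na+. Starved cells were thus below the other 3 libraries with DMS at these 4 nucleotides. By E they were above the 2 libraries without DMS at all 4. Relative to the mean of C, the 2 C nucleotides were at 0.946 each in starved cells, so this held there too. The library labelled K+ had 0 and 0.235, and that labelled Na+ 0.284 and 0.332. For the 2 A nucleotides it depends on the scale. Relative to the mean of A they were at 0.670 and 0.569 in starved cells. The library labelled K+ had 0.826 and 0.699, and that labelled Na+ 1.05 and 0.510. The A and C of the UGA codon and the next 20 nt had a ratio of 0.793 (interval 0.630 to 0.994), those at 21 to 40 nt 1.03 (interval 0.786 to 1.34), and those at 41 to 60 nt 1.08 (interval 0.950 to 1.22). Refolding in K+ against Li+ gave ratios of 0.853 to 1.02 in the 4 stretches, each with an interval that holds 1.

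**Figure D3:**
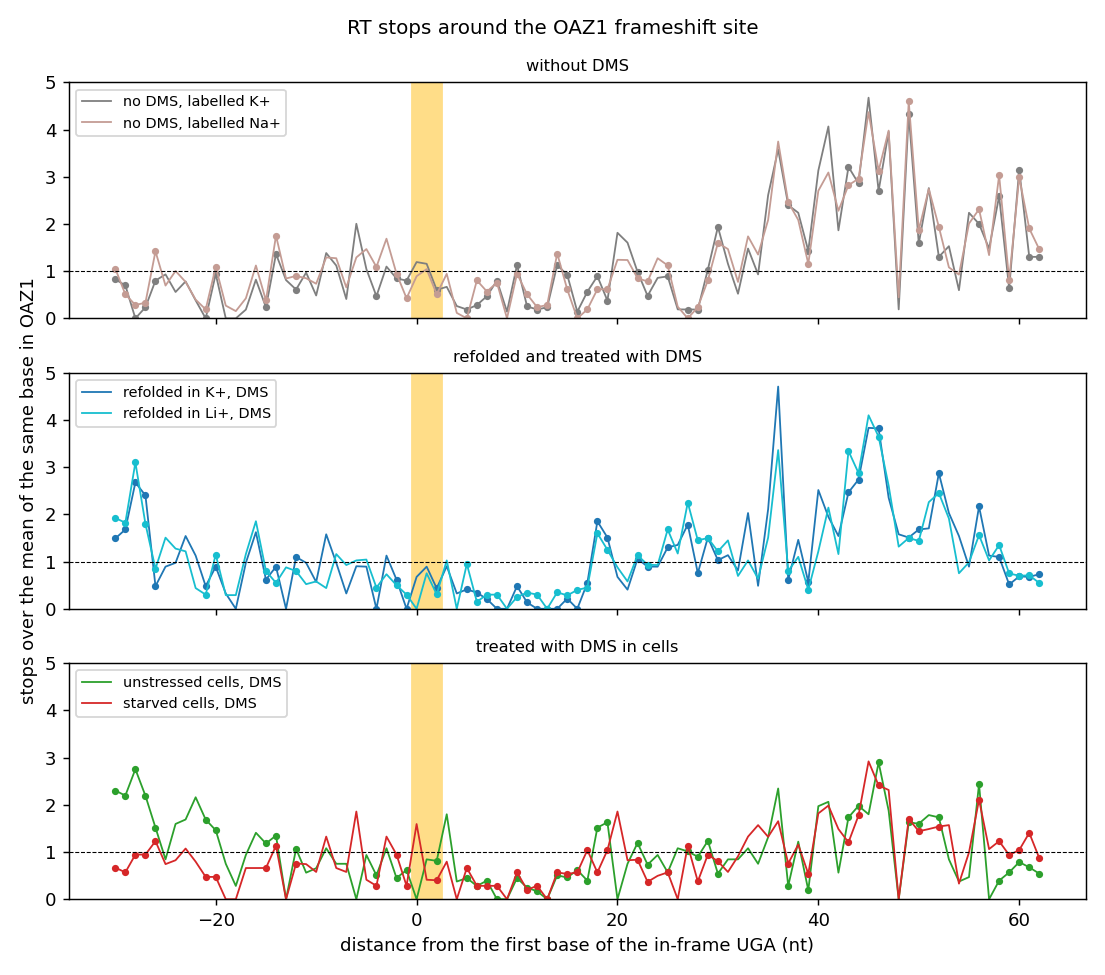
RT stops over the mean of the same base in OAZ1 (y axis, no unit) against the distance from the first base of the in-frame UGA (nt), in 3 panels for the pairs of libraries. Points mark A and C, the yellow band marks the UGA, and the dashed line is the transcript average of the base. Values are low just after the UGA in all 6 libraries, high toward the right edge, and lower in starved than in unstressed cells at the left edge.

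OAZ2 was read at a lower depth. Its window held 303 and 347 stops in the libraries labelled K+ and Na+, 209 and 284 after refolding in K+ and Li+, 139 in unstressed and 23 in starved cells. The first 20 nt after the UGA were nearly empty, with 13, 8, 9, 8, 0 and 0 listed stops in the same order of libraries. The 30 nt before the UGA held fewer stops at A and C in starved cells (7) than in unstressed cells (78), a ratio of 0.213 (interval 0.0828 to 0.459). Set against listed rather than estimated A and C stops, a choice added after seeing the data, it was 0.284 (interval 0.110 to 0.613). The 2 stretches of OAZ2 past the first 20 nt also had fewer such stops in starved cells, with 0 against 13 at 21 to 40 nt (upper limit 0.777, or 1.04 against listed stops) and 3 against 17 at 41 to 60 nt (ratio 0.418, interval 0.0785 to 1.45), so the difference was not shown to be particular to the 30 nt before the UGA. The strongest OAZ2 stop in the window was at a G, position 364, with 40 stops in the library labelled Na+ (E of 8.94) and 5 in that labelled K+, and with 0, 5, 0 and 0 in the libraries with DMS. The G at position 353 had 26 and 30 stops in the libraries labelled K+ and Na+ and 20 and 15 after refolding in K+ and Li+, and its ratio of Na+ to K+ by the labels was 1.11 (interval 0.634 to 1.95).

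Strong stops at G without DMS are the mark of a G-quadruplex in this assay when they depend on K+. Across the 7 members averaging 1 or more stops per nucleotide (SAT1 did not), 3820 G nucleotides were examined. The library labelled K+ had 0 strong stops among them and the library labelled Na+ had 6, where 0.0695% and 0.255% of all G nucleotides were strong stops. The 6 were on OAZ2, in its 3′ UTR in exon 5. OAZ1, ODC1, AMD1, AZIN1, SRM and SMS had none in either library. Each of the 6 exceeded 2-fold in favour of Na+ by the labels, and so did 68.4% of the 6491 strong stops at G over all transcripts, while 3.50% of these favoured K+ by 2-fold or more. By the file names the same 6 stops would be higher in K+. The paper describes RT stops that were stronger in K+ than in Na+ and mostly at G. Which assignment is right was not tested.

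The strongest of the 6 was the G at position 1868 (chr15:64979821), 49 nt before the end of the transcript. It had 7 stops in the library labelled K+ and 245 in that labelled Na+, a ratio of E of 33.6 (interval 16.1 to 84.6). It had 14 and 10 stops after refolding in K+ and Li+, 0 in unstressed cells and 11 in starved cells, where its E was 9.25. With the 3 stops that a listing needs in place of 0, starved cells were 7.13-fold higher than unstressed cells in E, and the lower counting limit against 0 stops was 4.88-fold. The G at position 1871 had 0 and 127 stops in the libraries labelled K+ and Na+, 40.7-fold higher in the second with 3 stops in place of 0 (lower counting limit 32.6). The G nucleotides at positions 1858 and 1859 had 5 and 7 stops in the library labelled K+ and 67 and 63 in that labelled Na+. These 4 nucleotides lie close together in 1 short stretch and are not independent.

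The other 2 strong stops stood apart. The G at position 910 (chr15:64980779) had 23 and 101 stops in the libraries labelled K+ and Na+, a ratio of 4.22 (interval 2.66 to 6.96), and 10, 4, 3 and 4 in the libraries with DMS. The G at position 1117 (chr15:64980572) had 0 and 56 stops, 17.9-fold higher in the second with 3 stops in place of 0 (lower counting limit 14.1). The 45 nt ending at each of the 6 stops contained 4 runs of 2 or more G, read on the sense strand, separated by 1 to 9 nt. Over all transcripts this motif preceded 89.3% of the strong stops at G higher in the library labelled Na+. It preceded 10.1% of those higher in the library labelled K+ and 11.7% of those under 2-fold apart. The 30 nt up to and including the strongest stop of each place are shown to make the G runs visible, on the OAZ2 strand 5′ to 3′, with runs of 2 or more G in capitals. They lie at chr15:64980779-64980808, chr15:64980572-64980601 and chr15:64979821-64979850 (GRCh37, minus strand).
OAZ2 stop at 910: GGaaGGacactgaGGGGctcaGGGtgaGGG
OAZ2 stop at 1117: tagaGGGGGaGGGactgtctGGGttcaGGG
OAZ2 stop at 1868: gattGGGtgaGGGGGacGGGGatgtcaGGG

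Together the 6 nucleotides took 42 of the listed OAZ2 stops (0.555%, 95% exact binomial interval 0.400 to 0.749%) in the library labelled K+ and 659 (8.36%, interval 7.76 to 8.99%) in that labelled Na+. After refolding they took 0.923% (interval 0.672 to 1.24%) in K+ and 0.423% (interval 0.279 to 0.614%) in Li+. In unstressed cells they took 14 stops (0.379%, interval 0.208 to 0.636%) and in starved cells 29 (2.14%, interval 1.43 to 3.05%). The 6 were chosen on the 2 libraries without DMS, so the 4 libraries with DMS were not used to choose them. Starved was above unstressed and K+ above Li+ by more than counting error. As shares of estimated OAZ2 stops, the cell values were 0.316% and 1.27%. OAZ2 had 1358 listed stops in starved cells, the fewest of its 6 libraries, and the share of OAZ2 stops at any G was also higher there (28.4%) than in unstressed cells (18.6%).

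**Figure D4:**
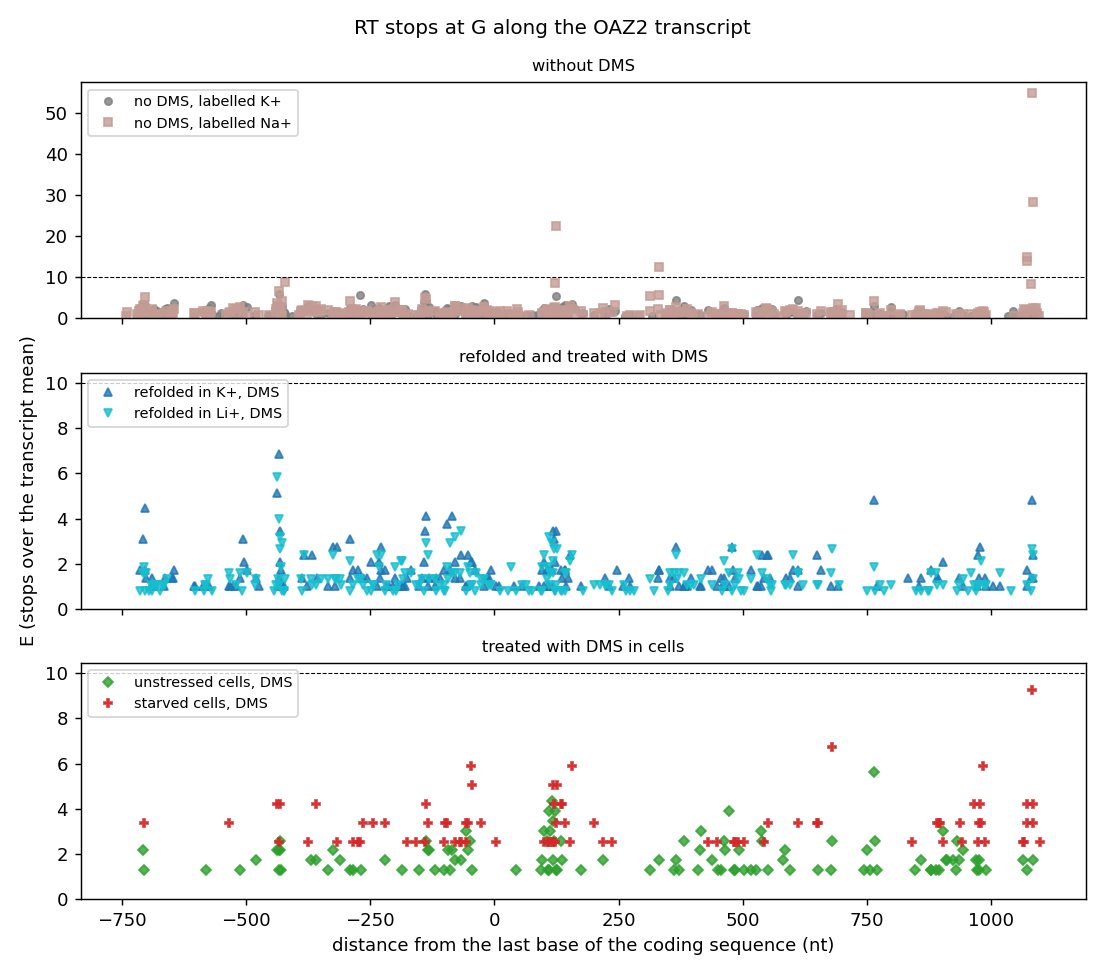
E at each G of OAZ2 with a listed stop, against the distance from the last base of the coding sequence (nt), in 3 panels for the pairs of libraries (y axes differ). The dashed line is an E of 10. In the top panel 6 points of the library labelled Na+ pass it, at 3 places of the 3′ UTR. In the libraries with DMS no G passes it.

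Below the threshold and with SAT1 left out, the highest G without DMS was on AZIN1, at position 3174 in its 3′ UTR. It had 0 stops in the library labelled K+ and 33 in that labelled Na+ (E of 9.09). The SAT1 G at position 397 had 5 and 3 stops in the same order (E of 15.5 and 9.44). The strongest G of AMD1 in the library labelled K+ was at position 1841 in the 3′ UTR, with 25 and 17 stops in the libraries labelled K+ and Na+ (E of 6.80 and 5.07). SRM had its strongest G at position 1238, 34 nt before the end, with 40 and 32 stops. The strongest G of OAZ1 was at position 324, inside the frameshift window, in the library labelled K+ (109 and 80 stops, E of 4.36 and 3.33) and at position 623 in the library labelled Na+ (99 and 108 stops). ODC1 and SMS stayed at an E of 5.09 or less at G in these 2 libraries. In the library labelled Na+ the strongest G of AMD1 was another one, at position 1139 in the coding sequence, with 4 stops in the library labelled K+ and 19 in that labelled Na+ (E of 1.09 and 5.66), a ratio of 5.21 with a lower counting limit of 1.73. Apart from this one and AZIN1, these G stops differed by less than 2-fold between the libraries.

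The 5′ UTRs of ODC1 and AMD1 are known to control translation. That of ODC1 is long and structured, and that of AMD1 carries a short upstream reading frame through which polyamines act. In these sequences the ODC1 5′ UTR (334 nt) was 32.3% G and 65.9% G and C. That of AMD1 (322 nt) was 22.4% G and 43.2% G and C, so the term G-rich holds for ODC1 but not for AMD1. Neither held a strong stop in any of the 6 libraries. In ODC1 the highest E at a G of the 5′ UTR was 2.34 in the library labelled K+ and 2.21 in that labelled Na+, and the G nucleotides of this region averaged 0.505 and 0.541 of the G mean of the transcript. In AMD1 the highest E at G was 2.72 and 3.28, and the averages were 0.544 and 0.671. Stops at G in both 5′ UTRs were thus below the transcript mean in both libraries. This was so in the 5′ UTRs of all 7 members other than SAT1, with averages from 0.0896 in SMS to 0.814 in OAZ1 in the library labelled K+, and stops at any base were few there too, with 9.58% of ODC1 stops on 16.2% of its length. The ODC1 5′ UTR held 3 and the AMD1 5′ UTR 1 of the motifs of 4 runs of at least 2 G, and neither held one with runs of at least 3 G. The stretch ending at the strongest ODC1 G of the 5′ UTR in the library labelled K+ (position 270, not preceded by the motif, chr2:10585328-10585357, minus strand) is shown for comparison with OAZ2, with its runs of 2 or more G in capitals.
ODC1 strongest stop at G in the 5 UTR: GGatttGGaattcctGGagagttgcctttg

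In cells the 5′ UTR of AMD1 could barely be read and that of ODC1 was thinly covered. That of AMD1 held 830 and 741 listed stops without DMS, 563 and 775 after refolding, but 21 in unstressed and 104 in starved cells, or 0.979% and 2.05% of the stops of the transcript for 9.42% of its length. That of ODC1 held 3444 and 3291 without DMS, 2111 and 3134 after refolding, 549 in unstressed and 800 in starved cells, on 95 and 122 of its nucleotides. No G of the AMD1 5′ UTR was listed in unstressed cells, so a difference at G between the cell libraries was not detectable there at this depth. The upstream reading frame of AMD1 is 21 nt long and begins at position 13 (chr6:111195999-111196019, plus strand). It is shown with its start and stop codons in capitals, and it encodes the peptide MAGDIS.
AMD1 upstream frame: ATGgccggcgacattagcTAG
It held 69 and 57 stops in the libraries labelled K+ and Na+, 73 and 90 after refolding in K+ and Li+, 0 in unstressed and 7 in starved cells. Its highest E was 6.19 and 6.68 after refolding in K+ and Li+, against 2.45 and 2.68 without DMS.

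Stops at G with DMS were compared nucleotide by nucleotide at G nucleotides with at least 10 stops in at least one library of a pair. Between refolding in K+ and in Li+, 627 G nucleotides of the members were compared, and 38 (6.06%) were at least 2-fold higher in K+ and 71 (11.3%) at least 2-fold higher in Li+. Over all transcripts the shares were 7.23% and 10.8% of 74319 G nucleotides, so the members were near the background. Relative to the mean of G in the same transcript, 38 (6.06%) were higher in K+ and 72 (11.5%) in Li+, against 6.53% and 11.9% over all transcripts. A 2-fold difference at 10 stops is within reach of counting error. For 14 of the 38 and 25 of the 71 the interval of the ratio left out 1. OAZ1 had 12 of 235 higher in K+ and 19 in Li+, ODC1 had 18 and 27 of 298, and SRM had 1 and 10 of 32. OAZ2 had 6 of 23 higher in K+ and 4 in Li+, and the interval left out 1 for 1 and 2 of these.

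Between starved and unstressed cells, 421 G nucleotides of the members were compared. Of these, 160 (38.0%) were at least 2-fold higher in starved cells and 23 (5.46%) at least 2-fold higher in unstressed cells, where 49.1% and 2.49% of 70696 G nucleotides over all transcripts were. For 93 of the 160 and 9 of the 23 the interval left out 1. The starved library had more stops in total. When it was thinned to the total depth of the unstressed library, 246 G nucleotides of the members were compared. Of these, 57 (23.2%) were higher in starved and 34 (13.8%) in unstressed cells, against 40.8% and 6.12% over all transcripts. Before thinning, OAZ1, OAZ2 and SRM already averaged only 13.7, 1.19 and 1.81 stops per nucleotide in starved cells. In unstressed cells they averaged 16.6, 2.31 and 4.67. Thinning widened this gap, so these members were not compared at equal depth. ODC1 had 80 of 172 higher in starved cells and 2 in unstressed cells. OAZ1 had 64 and 15 of 206. E at G rises when fewer stops fall on A and C, so the counts were repeated relative to the mean of G in the same transcript. They were then 90 (21.4%) and 47 (11.2%) for the members, and 33.2% and 8.86% over all transcripts. By these counts the members stood below the background for stops higher in starved cells on both scales. Counting only stops that were 2-fold higher in starved cells with an interval that left out 1, these were 22.1% of all member G nucleotides compared and 29.6% of those over all transcripts relative to the transcript mean, but 12.8% and 9.64% relative to the mean of G, so the order of members and background depends on the scale. OAZ1 and ODC1 held 206 and 172 of the 421 nucleotides.

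The share of stops at A and C was higher in each library with DMS than in both without it. What sets its level between libraries with DMS was not tested. In the libraries without DMS, A and C took 41.1 to 52.3% of the stops of the members. OAZ2 was lowest, with 45.5% in the library labelled K+ and 41.1% in that labelled Na+. In unstressed cells the share was 78.5% in OAZ1, 75.7% in OAZ2, 82.0% in ODC1, 84.1% in AMD1, 85.0% in AZIN1, 81.1% in SRM and 80.0% in SMS. In starved cells it was 69.4%, 62.1%, 71.0%, 74.2%, 75.9%, 70.1% and 73.2%. It was thus lower in starved cells in these 7 members, with intervals that did not overlap. With SAT1 it was lower in 8 of 8, but no G of SAT1 was listed in unstressed cells. The share was lower in starved cells for 90.8% of all 9017 transcripts, whose median was 85.4% in unstressed and 75.4% in starved cells. The drop at the members is therefore that of most transcripts. Both refolded libraries lay between the cell libraries in all 7, although in AZIN1 the intervals of both (77.1% in K+ and 76.3% in Li+) overlapped that of starved cells (75.9%).

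**Figure D5:**
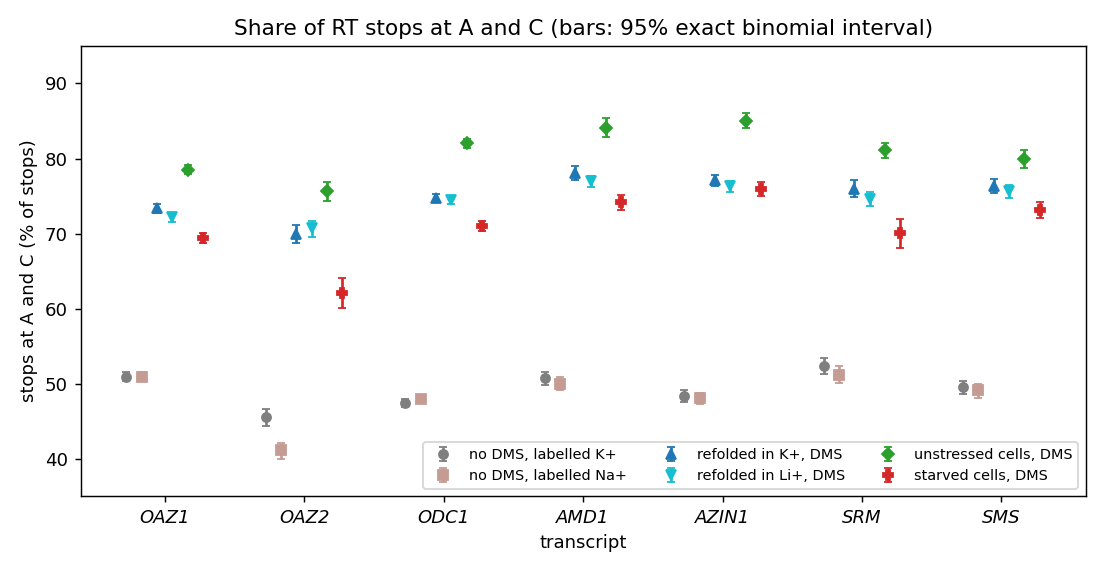
Share of RT stops at A and C (%, axis from 35 to 95) in 7 transcripts, with 1 point per library and bars for the 95% exact binomial interval, which covers counting error only. The libraries without DMS lie near 50%, and in each transcript starved cells lie below unstressed cells.

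The strongest stops of OAZ1, ODC1 and SMS with DMS were at A in the 3′ UTR, in unstressed cells. In OAZ1 the A at position 829 counted 269 stops in unstressed and 113 in starved cells (E of 16.2 and 8.24), 127 and 143 after refolding in K+ and Li+, and 88 and 107 without DMS. In ODC1 the A at position 1949, 113 nt before the end, had 121 and 92 stops in unstressed and starved cells (E of 16.2 and 9.06). SMS had the A at position 1634 with 49 and 22 stops (E of 18.9 and 6.20). Strong stops of any base numbered 5 in OAZ1, 5 in OAZ2, 8 in ODC1, 18 in AMD1, 21 in AZIN1, 6 in SRM and 22 in SMS in unstressed cells. In starved cells they numbered 0, 3, 1, 1, 3, 4 and 2. In all, 85 (0.532%) of 15986 nucleotides were strong stops in unstressed cells and 14 (0.0876%) in starved cells, against 0.876% and 0.499% over all transcripts averaging 1 or more stops per nucleotide. Of these stops, 1 was at a G, on AMD1 in unstressed cells. AMD1 and AZIN1 averaged 1.01 and 1.12 stops per nucleotide in unstressed cells, so a strong stop there rests on few counts.

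Other genes of polyamine metabolism were read from a list of 24. Of these, 22 were in the data and 18 had at least 100 stops in both cell libraries. In starved cells 7 of the 18 were at least 2-fold lower and 1 at least 2-fold higher, and the median log2 ratio was -0.60. Over all transcripts tested 30.1% were lower and 11.1% higher, with a median of -0.27, so the list was near the background. DOHH, which completes hypusine, had 526 estimated stops in unstressed cells. In starved cells none of its nucleotides reached the 3 stops that a listing needs. Its level there could not be estimated, and so it was not among the 18. The lowest of the 18 was ATP13A2, a lysosomal polyamine exporter, with 43.4 SPM in unstressed and 4.79 in starved cells (log2 ratio -3.18). EIF5A, the translation factor that carries the spermidine-derived residue hypusine, had 305 and 63.5 (log2 ratio -2.27). DHPS, which begins the making of hypusine, had a log2 ratio of -1.13. Spermine oxidase (SMOX) had 19.6 and 4.08, the amino acid transporter subunit SLC7A5 had 247 and 61.6, MYC, which drives ODC1 transcription, had a log2 ratio of -1.45, and AHCY, which clears S-adenosylhomocysteine, had 456 and 226. EIF5A2, a paralog of EIF5A, was the 1 higher gene, with 18.6 and 42.1 SPM, a log2 ratio of 1.18 where transcripts of like G and C content had a median of 0.99. Against the median of transcripts of like G and C content, ATP13A2 was lower by a log2 difference of -1.46 and EIF5A by -1.19. SMOX, MYC and SLC7A5 differed by -0.65, -0.47 and -0.39, which is under 2-fold, and DHPS and AHCY lay above their neighbours, by 0.24 and 0.13.

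The transcripts whose share across the 6 libraries was most like that of OAZ1 were HSD17B10, a mitochondrial dehydrogenase, GSTP1, a glutathione transferase, and ACADVL, an enzyme of fatty acid oxidation. Their distances to OAZ1 were 0.0398, 0.0651 and 0.0696 in centred log2 share, against a median of 0.995 over 1351 transcripts averaging 1 or more stops per nucleotide in every library. Their log2 ratios of starved to unstressed cells were -1.01, -1.05 and -1.07.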

How the data were processed

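In total 6 libraries were analysed, 1 per condition. Reads were kept by the authors when they had 1 perfect placement (0 mismatches) on an hg19 transcriptome in Bowtie. PCR copies had been removed beforehand with SAMtools (versions not given in the sources used here). The authors deposited the RT stop count of each nucleotide with at least 3 stops. They also deposited a ratio of that count to a mean, which in the files is that of the same base. Here the mean over all bases was restored from the base means weighted by composition, with unlisted nucleotides as 0. Transcripts were matched through their listed nucleotides to release 44 of GENCODE lifted to GRCh37 (10356 of 11031 with at least 15 listed bases, all 8 members). Of 15739 transcripts, 15373 had a gene symbol. Unmatched transcripts, and bases with no listed stop, counted listed stops only. Estimated totals ranged from 18281046 to 47018162 stops.

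Ratios have 95% exact conditional binomial intervals and shares exact binomial intervals. They cover counting error only, and with 1 library per condition no test was made. RT without DMS was in K+ or Na+ by the labels and in K+ or Li+ by the methods. Named were the 8 members, their strongest stops, listed pathway genes past 2-fold, and the 3 transcripts most like OAZ1. The members and lists were chosen with earlier results of these data known, and the stretches of 20 nt in the frameshift window were set after seeing its values. The calculation was tested on simulated data. The tools were numpy 2.4.6, scipy 1.17.1, pandas 2.3.3 and matplotlib 3.10.9 under Python 3.11.15.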

Additional observations from a re-analysis of the deposited data

How the results depend on the processing

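No paired analysis was possible because each condition had 1 library. Of 75 recomputed values, 51 stayed near the reported one (within 1.5 times for counts) and 24 did not. Relative to transcripts of like G and C content, a scaling added after seeing the data, 0 members were at least 2-fold lower in starved cells. Leaving out noncoding transcripts, also added then, gave 2 (OAZ1 was no longer past 2-fold), and so did scaling to the median transcript. Reading only the last 500 nt, added too, left 3, and listed totals for the 30 nt before the UGA, added too, gave 0.393 for OAZ1 and 0.284 for OAZ2. With E of at least 5, the members had 7 strong stops at G in the library labelled K+ and 18 in that labelled Na+, of which 14 were 2-fold higher in Na+ and 1 in K+. With E of at least 20 they had 3 in the library labelled Na+, all 3 higher there. A transcript minimum of 0.25 stops per nucleotide, or none, gave 1 in the library labelled K+, on SAT1. With file names in place of labels, 0 were higher in Na+ and 6 in K+. A site minimum of 20 stops left 4 G nucleotides higher in K+ and 8 in Li+, and 29 higher in starved and 3 in unstressed cells. The mean of G gave 90 and 47 for the cells, and thinning the starved library gave 57 higher in starved and 34 in unstressed cells. With E of at least 5, the frameshift windows held 1 and 2 stops in the libraries labelled K+ and Na+, 6 and 6 after refolding in K+ and Li+, 5 in unstressed and 1 in starved cells. The cause of these differences was not tested. Few stops limit the 5′ parts of transcripts in cells, where stops lay toward the 3′ end, OAZ2 in starved cells and SAT1 throughout.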

Other observations

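Among the members with a mean of at least 0.25 stops per nucleotide in every library, a pair of nucleotides was a strong stop in both refolded libraries while its E was under 2 in both libraries without DMS. They were chosen after their values were seen. The A at position 670 of the OAZ2 coding sequence (chr15:64981019, exon 5) had 42 and 40 stops after refolding in K+ and Li+ (E of 14.4 and 10.6), 13 in unstressed and 6 in starved cells (E of 5.62 and 5.04), while the library labelled K+ had 7 and that labelled Na+ 0. The A at position 328 in the AZIN1 5′ UTR had 31 and 65 stops after refolding in K+ and Li+ (E of 12.3 and 18.9), 4 in unstressed and 0 in starved cells, and 0 and 6 without DMS. Its ratio of K+ to Li+ was 0.649 (interval 0.409 to 1.01).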
